A study of Mus musculus and Homo sapiens with 32 samples.

Results

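The genes followed here, through kidneys with and without ureteral obstruction, are 9 of the loop of Henle and the distal convoluted tubule. They were the rows of the obstruction count table named Umod, Slc12a1, Slc12a3, Calb1, Pvalb, S100g, Trpm6, Wnk1 and Slc8a1, 9 of 57180 genes, each with 1 row. The kidneys came from Pcmt1 tKO and Pcmt1 fl/fl mice, in 6 groups of 3 libraries. Within each genotype the groups were unilateral ureteral obstruction (UUO, a tied ureter) with LY2109761, UUO with DMSO, and sham surgery with DMSO. LY2109761 inhibits the kinases of the TGF-β receptors, and DMSO is its solvent. Pcmt1 encodes an enzyme that repairs isoaspartyl residues in proteins. The meaning of tKO, the driver of the deletion and the strain, age and sex of the mice are not given in the sources used here. Nothing states that the 3 libraries of a group came from separate animals, so the p-values measure the spread between these libraries, which may be technical.

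The thick ascending limb of the loop takes up salt without water through the cotransporter encoded by Slc12a1, the target of loop diuretics, and secretes uromodulin, the product of Umod. The distal convoluted tubule that follows takes up sodium and chloride through the cotransporter encoded by Slc12a3, the target of thiazides, which kinases of the WNK family switch on. The same stretch and the connecting tubule behind it set the final calcium and magnesium content of the urine. There, calcium enters through apical channels, is carried by the calbindins (Calb1, S100g) and leaves through the exchanger encoded by Slc8a1, while magnesium enters through the channel encoded by Trpm6. Pvalb encodes parvalbumin, a calcium buffer that marks the early distal convoluted tubule and, outside the kidney, fast muscle.

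With obstruction 7 of the 9 genes fell and 2 did not, so the start regions of 2 of each kind are shown: Slc12a1 and S100g, which fell, and Umod and Trpm6, which did not. Each runs from 250 bases before to 50 bases after the start annotated by RefSeq (GRCm38.p6) and is written 5′ to 3′ on the gene's strand. Capitals mark 2 motifs, which were searched on both strands and do not overlap here. They are the half-site of the oestrogen-related receptors (AAGGTCA), a part of their full site, and the TATA box (TATAAA).
Umod, chr7:119479213-119479512, minus strand: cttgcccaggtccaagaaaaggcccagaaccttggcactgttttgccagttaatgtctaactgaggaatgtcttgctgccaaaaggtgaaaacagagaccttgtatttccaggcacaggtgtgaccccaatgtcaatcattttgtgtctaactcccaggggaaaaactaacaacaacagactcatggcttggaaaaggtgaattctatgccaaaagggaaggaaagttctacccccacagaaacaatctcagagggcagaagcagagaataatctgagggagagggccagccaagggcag
Slc12a1, chr2:125152350-125152649, plus strand: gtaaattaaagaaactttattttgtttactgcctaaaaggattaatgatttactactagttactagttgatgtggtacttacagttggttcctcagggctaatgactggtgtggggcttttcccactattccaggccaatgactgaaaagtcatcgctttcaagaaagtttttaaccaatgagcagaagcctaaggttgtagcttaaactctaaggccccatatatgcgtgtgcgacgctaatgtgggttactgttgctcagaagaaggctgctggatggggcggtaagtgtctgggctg
Trpm6, chr19:18749480-18749779, plus strand: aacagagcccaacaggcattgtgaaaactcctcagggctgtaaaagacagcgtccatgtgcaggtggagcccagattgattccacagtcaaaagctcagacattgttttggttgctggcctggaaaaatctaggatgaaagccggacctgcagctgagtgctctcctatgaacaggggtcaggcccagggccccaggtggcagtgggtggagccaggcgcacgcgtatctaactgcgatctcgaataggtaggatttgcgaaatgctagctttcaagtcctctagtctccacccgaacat
S100g, chrX:162964550-162964849, minus strand: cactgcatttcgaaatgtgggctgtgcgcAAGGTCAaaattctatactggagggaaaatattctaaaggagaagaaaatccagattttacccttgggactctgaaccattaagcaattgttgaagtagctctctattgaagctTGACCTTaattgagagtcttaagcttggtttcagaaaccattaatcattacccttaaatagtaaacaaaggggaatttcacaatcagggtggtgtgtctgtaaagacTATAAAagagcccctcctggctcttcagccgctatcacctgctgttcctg
S100g held the half-site at position -221 from the start and, as TGACCTT on the other strand, at -107. Its TATA box began at the annotated start itself. Umod, Slc12a1 and Trpm6 held neither motif. Such a region was at hand for 8 of the 9 genes, all but Calb1. Slc12a3 held a TATA box at -32, and Wnk1, Pvalb and Slc8a1 held neither. The Wnk1 region lies at the 5′ end of the whole gene, and no further start of Wnk1 was searched. Among 32851 regions of the same length, 4.72% held the half-site and 13.6% the TATA box. These matches describe letters only.

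The obstruction libraries held 13015669 to 19565376 counts. Mitochondrially encoded genes took 12.3% to 18.8% of the counts in tKO UUO+LY2109761, 9.88% to 16.2% in tKO UUO, 33.7% to 69.5% in tKO sham, 12.1% to 16.4% in fl/fl UUO+LY2109761, 7.43% to 7.67% in fl/fl UUO and 30.8% to 35.5% in fl/fl sham kidneys. Levels below are CPM, counts relative to library size, after TMM scaling, which sets the bulk of genes equal between libraries. Its factor ran from 0.352 in tKO sham replicate 3, the library with the 69.5% share, to 1.33 in tKO UUO replicate 1. Pcmt1 itself stood at 49.3 CPM in the library labelled tKO sham replicate 1, against 22.7 and 24.3 CPM in tKO sham replicates 2 and 3 and 42.8 to 48.9 CPM in fl/fl sham libraries. That library goes against its label, and the tests between genotypes in sham kidneys are given with and without it. Without it the same number of the 9 genes fell with obstruction in tKO, 7, and none rose. Among obstructed kidneys, Pcmt1 in fl/fl UUO+LY2109761 replicate 3 was 25.7 CPM, within the 23.1 to 28.0 CPM of tKO UUO+LY2109761 libraries. Replicates 1 and 4 of fl/fl UUO+LY2109761 had 31.3 and 39.0 CPM. The fl/fl UUO libraries had 35.3 to 41.4 CPM and the tKO UUO libraries 24.7 to 26.1 CPM.

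In sham kidneys S100g was the most abundant of the 9 genes per length, and Trpm6 the least. On the authors' FPKM scale, which divides by gene length, S100g stood at 1408 ± 437 FPKM in tKO sham and 1614 ± 132 FPKM in fl/fl sham kidneys (SD, n = 3 each). Umod stood at 69.1 ± 28.3 FPKM in tKO sham and 121 ± 17.7 FPKM in fl/fl sham kidneys. Slc12a1 stood at 99.7 ± 24.6 FPKM in tKO sham and 80.1 ± 15.3 FPKM in fl/fl sham kidneys. The library labelled tKO sham replicate 1 had 1889 FPKM for S100g, 90.3 FPKM for Umod and 102 FPKM for Slc12a1, against 1036 to 1298 FPKM, 36.9 to 80.02 FPKM and 74.0 to 123 FPKM in the other two libraries of its group. The order in fl/fl sham kidneys was S100g, Umod, Calb1 (81.1 ± 30.5 FPKM), Slc12a1, Slc12a3 (29.4 ± 1.19 FPKM), Wnk1 (6.57 ± 0.587 FPKM), Slc8a1 (6.23 ± 2.21 FPKM), Pvalb (3.93 ± 0.797 FPKM) and Trpm6 (1.59 ± 0.113 FPKM). Neighbours in this order overlapped for Umod and Calb1, Calb1 and Slc12a1, Wnk1 and Slc8a1, and Slc8a1 and Pvalb. In obstructed kidneys Umod took the first place, at 175 ± 32.1 FPKM in tKO UUO and 215 ± 37.3 FPKM in fl/fl UUO kidneys, ahead of S100g at 124 ± 28.8 FPKM in tKO UUO and 110.2 ± 24.4 FPKM in fl/fl UUO kidneys. The libraries of Umod and S100g overlapped in tKO UUO kidneys and did not in fl/fl UUO kidneys.

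**Figure D1:**
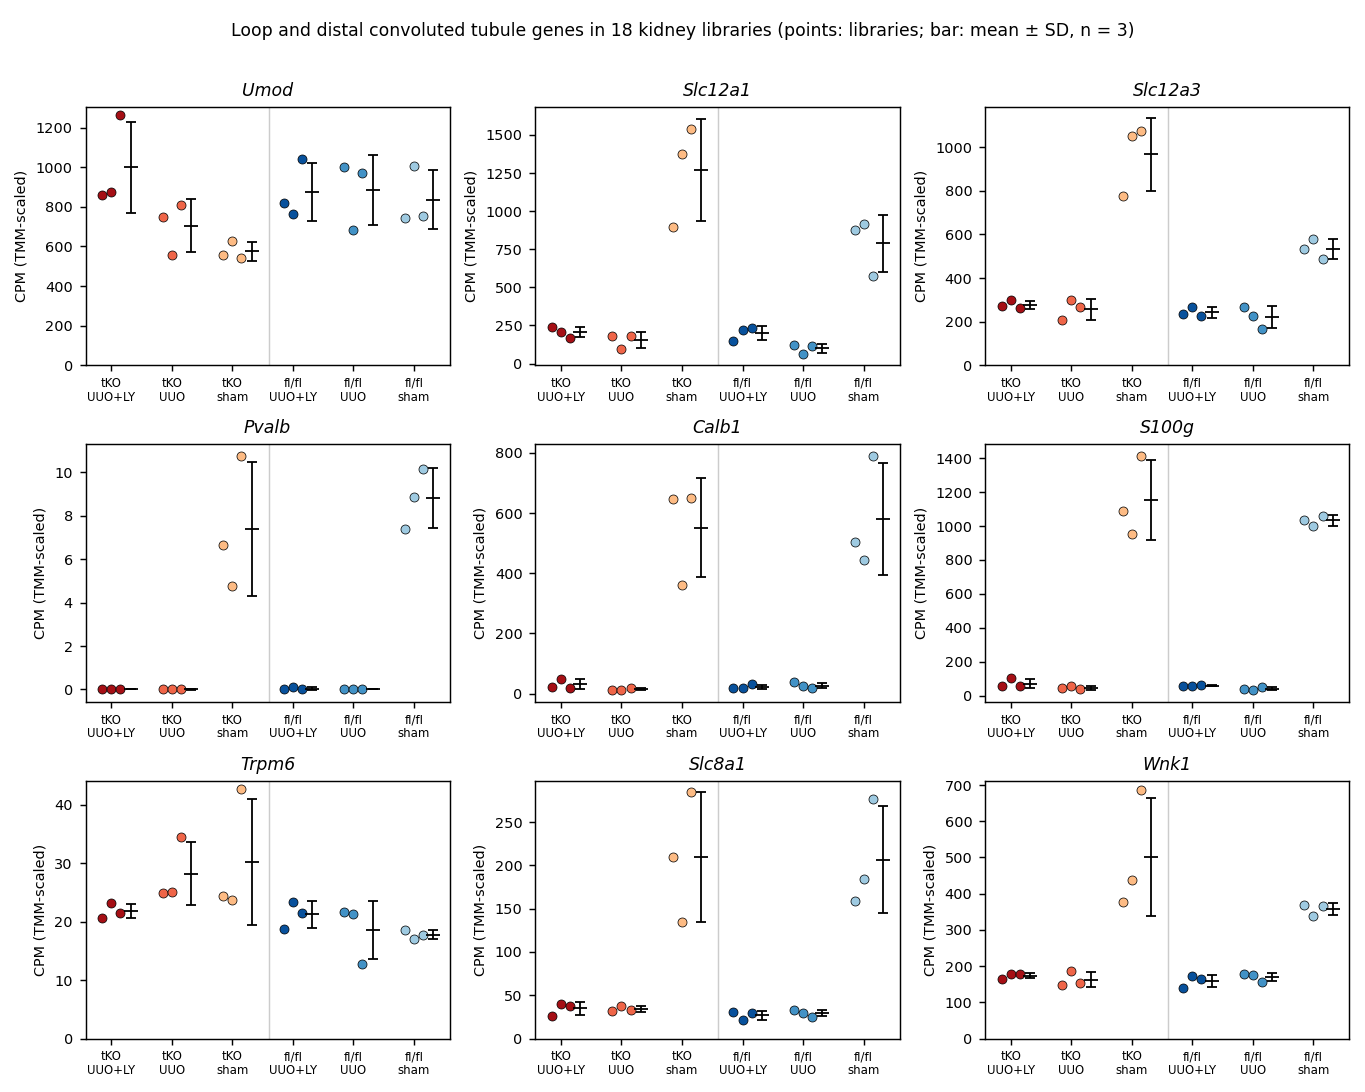
TMM-scaled CPM (vertical axis, linear, a different scale in each panel) of the 9 genes in every library, with the mean and SD of each group of 3 beside the points. Slc12a1, Slc12a3, Pvalb, Calb1, S100g, Slc8a1 and Wnk1 are lower in all 6 UUO and all 6 UUO+LY2109761 libraries than in any sham library of the same genotype, while Umod and Trpm6 are not.

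Obstruction was set against sham surgery in each genotype. In both tKO and fl/fl kidneys 7 of the 9 genes fell and none rose, at an edgeR quasi-likelihood adjusted p under 0.05. Among the 19256 genes tested, the share called in tKO was 41% (19.4% lower, 21.6% higher), and in fl/fl 39.6% (18.7% lower, 20.9% higher). The median log2 change of the 9 genes was -2.62 in tKO and -2.82 in fl/fl, beside 0.02 for all genes in each genotype. With library totals in place of TMM, when the median of all genes moved to 1.06 in tKO and 0.76 in fl/fl, 7 fell and 2 rose in tKO and 5 fell and 2 rose in fl/fl. All 9 genes passed the filter on low counts, Pvalb only through its sham libraries, so that it had to differ. Its call and its lack of overlap are therefore descriptions, and the counts and medians of the 9 genes include it. In 7 of the 9 genes the UUO and sham libraries did not overlap, in either genotype, as in 48.8% of all genes in tKO and 54.8% in fl/fl. From whole kidney, fewer cells of a segment and less RNA per cell cannot be told apart.

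Markers of other cells moved as well. The summed level of 10 proximal tubule markers was 4453 to 6857 CPM in tKO UUO and 25194 to 40466 CPM in tKO sham kidneys, and 4517 to 7554 CPM in fl/fl UUO and 30008 to 40528 CPM in fl/fl sham kidneys (9 of 10 lower in tKO, 8 of 10 in fl/fl). All 11 collecting duct markers fell in both genotypes. Of 8 macrophage markers 7 rose in each genotype, to a sum of 1163 to 2779 CPM in tKO UUO, against 204 to 262 CPM in tKO sham, and of 978 to 1178 CPM in fl/fl UUO, against 181 to 209 CPM in fl/fl sham kidneys. Fibroblast markers rose for 6 of 7 genes in tKO and 5 of 7 in fl/fl, and all 6 injured tubule markers rose in both. None of the proximal tubule, collecting duct, macrophage, fibroblast or injured tubule markers was at 0 in any group. The part of these changes in the results on the 9 genes was not tested.

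Umod (ENSMUSG00000030963, GRCm38 chromosome 7, 119462711 to 119479282), the gene of the most abundant protein of normal urine, did not fall. It had 751, 555 and 809 CPM in tKO UUO kidneys, against 557, 629 and 539 CPM in tKO sham kidneys. In fl/fl UUO kidneys it had 1002, 683 and 970.0 CPM, against 745, 1007 and 754 CPM in fl/fl sham kidneys. The groups overlapped in both genotypes. The log2 change was 0.29 in tKO (SE 0.21, edgeR adjusted p = 0.285) and 0.08 in fl/fl (SE 0.21, edgeR adjusted p = 0.787), with 95% intervals of -0.15 to 0.74 and -0.36 to 0.53. With library totals the changes were 1.34 in tKO (edgeR adjusted p = 0.0011) and 0.82 in fl/fl (edgeR adjusted p = 0.0289), next to the shifts of all genes given above. Its exons share 539 bases with a gene on the other strand, Gm44588, which had 3 to 526 counts beside 2706 to 23604 for Umod, and the strand setting of the counting is not given in the sources used here.

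Slc12a1 (ENSMUSG00000027202, GRCm38 chromosome 2, 125152505 to 125230002) belongs to the same segment and fell. It had 184, 96.7 and 183 CPM in tKO UUO kidneys, against 897, 1376 and 1539.5 CPM in tKO sham kidneys. In fl/fl UUO kidneys it had 122, 65.4 and 114 CPM, against 874, 918 and 576 CPM in fl/fl sham kidneys. The lowest sham library lay above the highest obstructed library in both genotypes. The gene was 8.23-fold lower in tKO (log2 -3.04, SE 0.33, edgeR adjusted p = 4.0e-06) and 7.84-fold lower in fl/fl (log2 -2.97, SE 0.32, edgeR adjusted p = 4.7e-06).

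Within each library, the ratio of Umod to Slc12a1 does not depend on scaling. On the FPKM scale it was 5.81 to 8.16 in tKO UUO, against 0.499 to 0.884 in tKO sham kidneys, a 10.1-fold higher ratio. It was 11.7 to 14.9 in fl/fl UUO, against 1.21 to 1.86 in fl/fl sham kidneys, an 8.404-fold higher ratio. The groups did not overlap in either genotype. The ratios were chosen after the values had been seen and are given without a test.

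Slc12a3 (ENSMUSG00000031766, GRCm38 chromosome 8, 94329201 to 94366214), the cotransporter of the distal convoluted tubule, fell less. It had 206, 302 and 266 CPM in tKO UUO kidneys, against 775, 1053 and 1075 CPM in tKO sham kidneys. The fl/fl UUO libraries had 268, 228 and 166 CPM, against 533, 579.7 and 487 CPM in fl/fl sham kidneys. Obstructed and sham libraries were apart in both. It was 3.75-fold lower in tKO (log2 -1.91, SE 0.19, edgeR adjusted p = 2.1e-06) and 2.41-fold lower in fl/fl (log2 -1.27, SE 0.19, edgeR adjusted p = 6.6e-05). With library totals the fl/fl change was -0.53 (edgeR adjusted p = 0.0692), no longer past the threshold.

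Wnk1 (ENSMUSG00000045962, GRCm38 chromosome 6, 119923969 to 120038672) encodes a chloride-sensing kinase upstream of that cotransporter. The distal tubule makes a short, kidney-specific form of it besides the full-length form, and counts per gene cannot part the forms. The gene had 149, 187 and 152 CPM in tKO UUO, against 378, 439 and 685 CPM in tKO sham kidneys. Levels in fl/fl UUO kidneys were 177, 175 and 157 CPM, against 367, 338 and 366 CPM in fl/fl sham kidneys. The log2 change was -1.62 in tKO (SE 0.18, edgeR adjusted p = 5.2e-06) and -1.07 in fl/fl (SE 0.18, edgeR adjusted p = 1.8e-04), with no overlap in either. With library totals the fl/fl change was -0.33 (edgeR adjusted p = 0.134), no longer past the threshold.

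Pvalb (ENSMUSG00000005716, GRCm38 chromosome 15, 78191114 to 78206400) was the lowest of the 9 genes in CPM and all but vanished. It had 0, 0.0432 and 0 CPM in tKO UUO kidneys, against 6.63, 4.78 and 10.8 CPM in tKO sham kidneys. In fl/fl UUO kidneys it was at 0 in all 3 libraries, against 7.39, 8.88 and 10.2 CPM in fl/fl sham kidneys. The single count in tKO UUO, against 189 counts in tKO sham, gave a 469-fold lower level with a 95% counting interval of 83.2 to 18629.9. With 0 counts in fl/fl UUO, against 382 in fl/fl sham kidneys, and a floor of 3 counts over the group, the level was at least 185-fold lower. The 6 skeletal muscle markers summed to 2.46 to 3.01 CPM in tKO sham and 1.56 to 2.51 CPM in fl/fl sham kidneys, with 1 of the 6 at 0 in each of these groups, and to 1.78 to 2.29 CPM in tKO UUO and 1.55 to 4.60 CPM in fl/fl UUO kidneys, where 0 and 2 of the 6 were at 0.

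After Pvalb, the calbindin genes had the largest fold changes of the 9 in both genotypes. Calb1 (ENSMUSG00000028222, GRCm38 chromosome 4, 15881264 to 15908064), which encodes calbindin-D28K, had 12.4, 13.4 and 17.9 CPM in tKO UUO kidneys, against 646, 361 and 649 CPM in tKO sham kidneys. Calb1 had 37.3, 23.9 and 19.6 CPM in fl/fl UUO kidneys, against 505, 445 and 791 CPM in fl/fl sham kidneys. No obstructed library came near a sham library. Calb1 was 37.9-fold lower in tKO (log2 -5.24, SE 0.44, edgeR adjusted p = 5.2e-07) and 21.5-fold lower in fl/fl (log2 -4.43, SE 0.42, edgeR adjusted p = 1.4e-06).

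S100g (ENSMUSG00000040808, GRCm38 chromosome X, 162961992 to 162964599), which encodes calbindin-D9k, is the shortest of the 9 genes. It had 43.6, 58.4 and 38.5 CPM in tKO UUO kidneys, against 1089, 953 and 1415 CPM in tKO sham kidneys. Levels in fl/fl UUO kidneys were 40.2, 34.2 and 52.5 CPM, against 1038, 1000.1 and 1062 CPM in fl/fl sham kidneys. The gap between the groups was wide in both genotypes. S100g was 24.6-fold lower in tKO and 24.4-fold lower in fl/fl (edgeR adjusted p = 3.6e-08 and 3.1e-08). The ratio of Calb1 to S100g, again on the FPKM scale, overlapped between 0.0203 to 0.0412 in tKO UUO and 0.0335 to 0.0525 in tKO sham kidneys, and between 0.0330 to 0.0821 in fl/fl UUO and 0.0393 to 0.0659 in fl/fl sham kidneys.

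Slc8a1 (ENSMUSG00000054640, GRCm38 chromosome 17, 81373105 to 81738377), the sodium-calcium exchanger that moves calcium out to the blood side, had 31.6, 37.7 and 32.8 CPM in tKO UUO kidneys, against 209.6, 134 and 285 CPM in tKO sham kidneys. The fl/fl UUO libraries had 32.5, 30.0 and 25.4 CPM, against 159, 184 and 276 CPM in fl/fl sham kidneys. The obstructed libraries agreed closely and lay below every sham library. The exchanger gene was 6.15-fold lower in tKO (log2 -2.62, SE 0.27, edgeR adjusted p = 3.1e-06) and 7.04-fold lower in fl/fl (log2 -2.82, SE 0.27, edgeR adjusted p = 1.7e-06). Its exons share 296 bases with AC122399.1 and 8 bases with Gm11096, both on the other strand.

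Trpm6 (ENSMUSG00000024727, GRCm38 chromosome 19, 18749983 to 18892511), the magnesium channel gene, was the other gene that did not fall. It had 24.99, 25.1 and 34.4 CPM in tKO UUO kidneys, against 24.4, 23.7 and 42.7 CPM in tKO sham kidneys. In fl/fl UUO kidneys it had 21.7, 21.2 and 12.8 CPM, against 18.5, 17.01 and 17.7 CPM in fl/fl sham kidneys. The groups overlapped in both genotypes. The log2 change was -0.09 in tKO (SE 0.23, edgeR adjusted p = 0.780, 95% interval -0.58 to 0.40) and 0.07 in fl/fl (SE 0.23, edgeR adjusted p = 0.849, 95% interval -0.42 to 0.56). With library totals it was 1.08 in tKO (edgeR adjusted p = 7.3e-04) and 0.80 in fl/fl (edgeR adjusted p = 0.0084), close to the shifts of all genes. Without tKO sham replicate 3 the tKO value was 0.23. Relative to Slc12a3 in the same library, on the FPKM scale, Trpm6 stood at 0.135 to 0.209 in tKO UUO, against 0.0363 to 0.0641 in tKO sham kidneys, and at 0.124 to 0.1504 in fl/fl UUO, against 0.0474 to 0.0586 in fl/fl sham kidneys. S100g relative to Slc12a3 went the other way, at 4.08 to 5.97 in tKO UUO, against 25.5 to 39.6 in tKO sham kidneys, and at 4.23 to 8.92 in fl/fl UUO, against 48.7 to 61.4 in fl/fl sham kidneys.

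**Figure D2:**
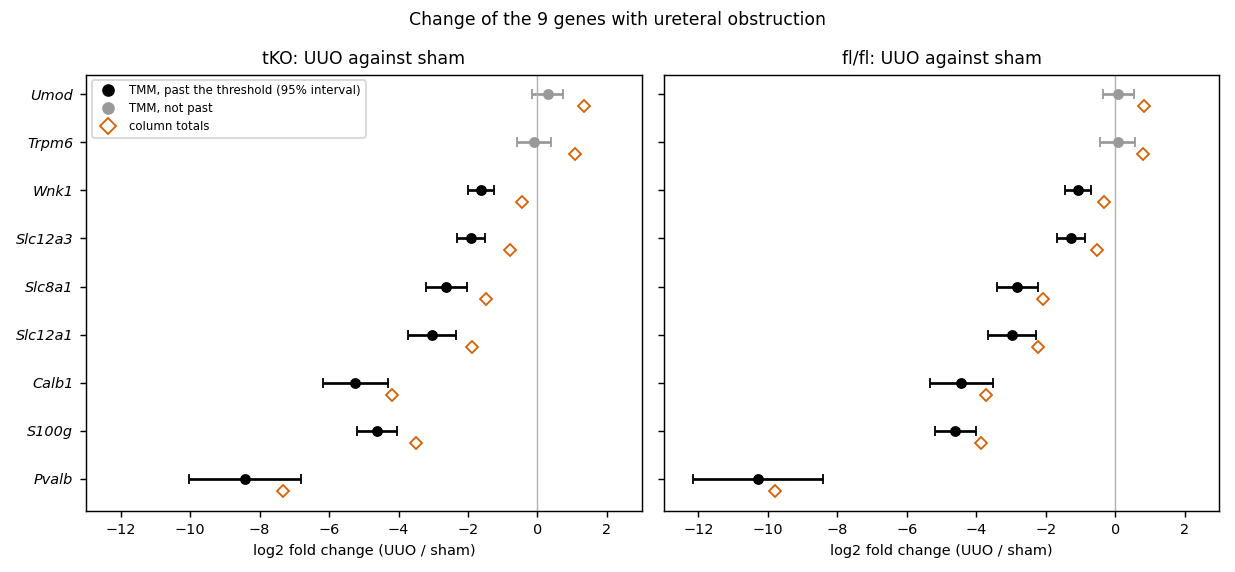
Log2 fold change of each gene between UUO and sham kidneys, in tKO (left) and fl/fl (right). Circles with bars are edgeR estimates after TMM with 95% intervals, black where the adjusted p is under 0.05 and grey where it is not, and open diamonds are the values with library totals, which lie further right. Umod and Trpm6 stand at 0.29 and -0.09 in tKO and at 0.08 and 0.07 in fl/fl, while Calb1 and S100g lie beyond -4. The Pvalb estimate depends on the prior count and is no bound.

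**Figure D3:**
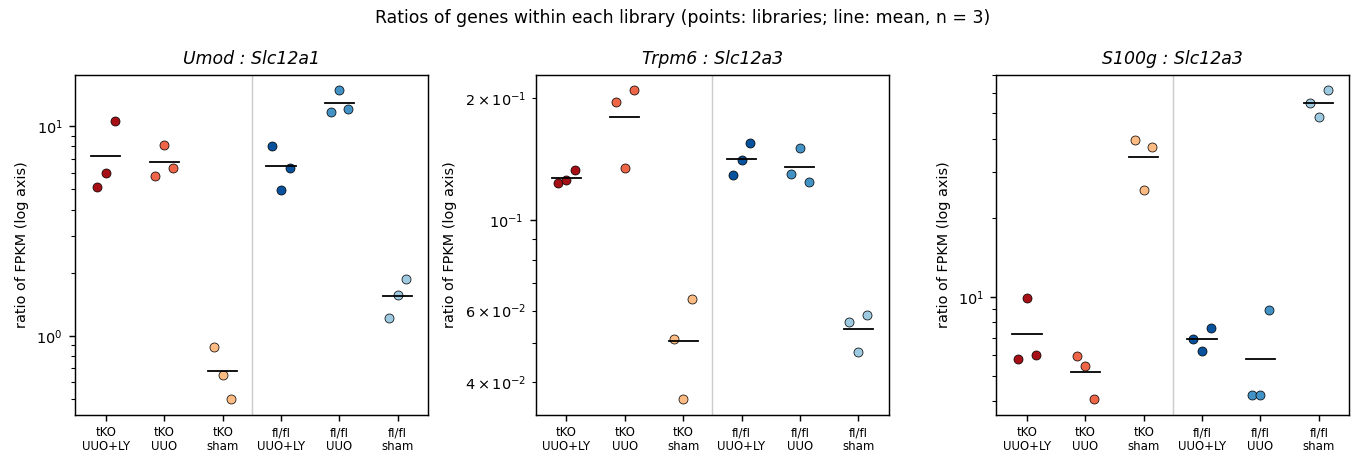
Ratios of FPKM between 2 genes of the same library (log axis), with a line at the mean of each group of 3. Umod to Slc12a1 and Trpm6 to Slc12a3 are higher, and S100g to Slc12a3 lower, in all obstructed libraries than in any sham library of the same genotype.

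Obstructed kidneys given LY2109761 were set against the same sham kidneys. The share of all genes called was 39.8% in tKO (19% lower, 20.8% higher) and 42% in fl/fl (19.6% lower, 22.4% higher). In each genotype 7 of the 9 genes fell, the ones named above, and Umod rose in tKO. Umod had 859, 877 and 1266 CPM in tKO UUO+LY2109761 kidneys, all above the 557, 629 and 539 CPM of tKO sham kidneys (log2 0.80, SE 0.21, edgeR adjusted p = 0.0069). In fl/fl kidneys it had 821, 763 and 1042 CPM with UUO+LY2109761, within the range of fl/fl sham kidneys (log2 0.07, SE 0.21, edgeR adjusted p = 0.821). Calb1 was 17.9-fold lower in tKO and 25.9-fold lower in fl/fl, S100g 16.0-fold and 17.4-fold, Slc12a1 6.17-fold and 3.94-fold, and Slc12a3 3.50-fold and 2.20-fold. The log2 change of Slc8a1 was -2.59 in tKO and -2.94 in fl/fl, and that of Wnk1 was -1.53 in tKO and -1.17 in fl/fl. The edgeR adjusted p of these 6 genes was at most 1.7e-05 in tKO and 1.6e-04 in fl/fl. With library totals Slc12a3 in fl/fl, at -0.47 (edgeR adjusted p = 0.111), and Wnk1 in tKO, at -0.41 (edgeR adjusted p = 0.0596), did not pass.

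Pvalb had 0 counts in tKO UUO+LY2109761 kidneys, at least 135-fold lower than in tKO sham kidneys. In fl/fl kidneys 2 counts were left, a 244-fold lower level with a 95% counting interval of 67.1 to 2022. The call of Pvalb and its lack of overlap are again descriptions, as it passed the filter on low counts through sham libraries alone. Trpm6 did not pass in either genotype. It was at 20.7, 23.2 and 21.6 CPM in tKO UUO+LY2109761 kidneys, below all tKO sham libraries (log2 -0.46, SE 0.23, edgeR adjusted p = 0.126), but 0.65 with library totals. It was at 18.8, 23.4 and 21.5 CPM in fl/fl UUO+LY2109761 kidneys, above all fl/fl sham libraries (log2 0.26, SE 0.23, edgeR adjusted p = 0.396). Groups without overlap were found for all 9 genes in tKO and 8 in fl/fl, beside 47.1% and 55.7% of all genes.

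The effect of the inhibitor itself was read from obstructed kidneys, LY2109761 against DMSO. None of the 9 genes passed edgeR's test in either genotype. In tKO 3 had an unadjusted p under 0.05 and DESeq2 called 0, where 0.171% of all genes were called by edgeR. In fl/fl 1 had an unadjusted p under 0.05 and DESeq2 called 1, where 5.15% of all genes were called by edgeR. That gene was Slc12a1. It had 146, 219 and 235 CPM in fl/fl UUO+LY2109761, all above the 122, 65.4 and 114 CPM of fl/fl UUO kidneys (log2 0.99, SE 0.30, edgeR adjusted p = 0.0692, DESeq2 adjusted p = 0.0241). The library with 219 CPM is replicate 3, whose Pcmt1 lay in the tKO range. As each of the 6 libraries was left out, the fl/fl difference ran from 0.76 to 1.17 (edgeR adjusted p 0.087 to 0.23). In tKO kidneys the Slc12a1 difference was 0.41 (SE 0.30, edgeR adjusted p = 0.516, 95% interval -0.23 to 1.06), with overlapping groups.

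Calb1 had 23.0, 49.9 and 19.6 CPM in tKO UUO+LY2109761, above the 12.4, 13.4 and 17.9 CPM of tKO UUO kidneys (log2 1.08, SE 0.38, edgeR adjusted p = 0.163). Without tKO UUO+LY2109761 replicate 2, the library with 49.9 CPM, the difference was 0.54 (edgeR adjusted p = 0.565). In fl/fl kidneys Calb1 stood at 18.4, 17.6 and 31.3 CPM with LY2109761, against 37.3, 23.9 and 19.6 CPM with DMSO (log2 -0.26, SE 0.37, edgeR adjusted p = 0.727). S100g in fl/fl UUO+LY2109761 kidneys, at 57.7, 59.3 and 60.7 CPM, lay just above the 40.2, 34.2 and 52.5 CPM of fl/fl UUO kidneys (log2 0.49, SE 0.24, edgeR adjusted p = 0.247). Umod in tKO was higher by 0.50 (SE 0.21, edgeR adjusted p = 0.229) and Trpm6 in tKO lower, at -0.37 (SE 0.23, edgeR adjusted p = 0.431), each without overlap. Groups without overlap numbered 3 of 9 in tKO and 2 of 9 in fl/fl, beside 25.6% and 31.8% of all genes.

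**Figure D4:**
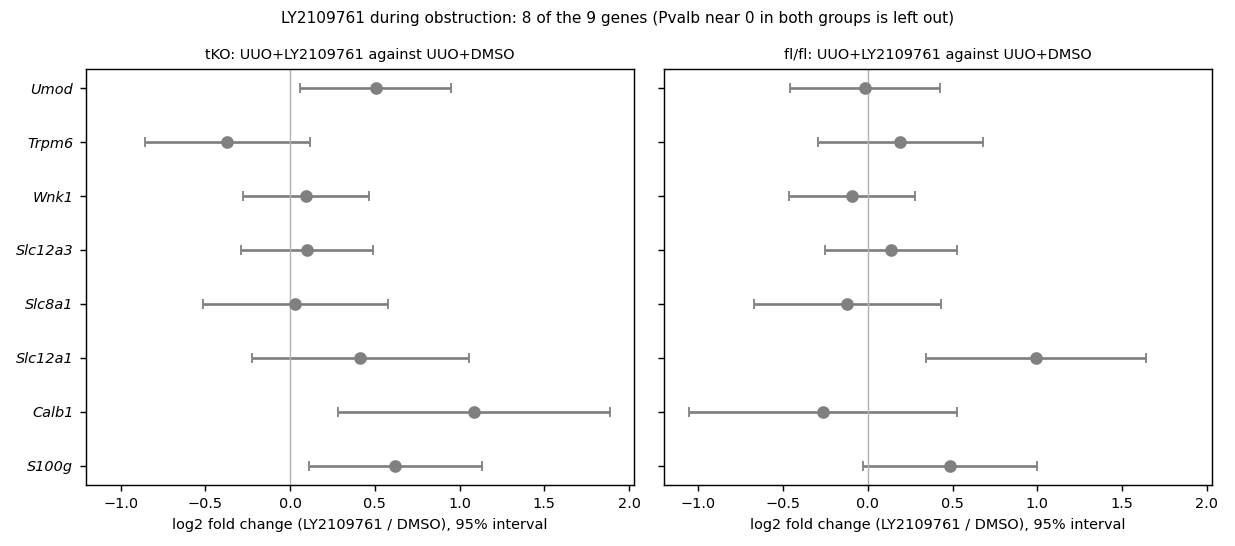
Log2 fold change between UUO+LY2109761 and UUO+DMSO kidneys with its 95% interval from edgeR, in tKO (left) and fl/fl (right), for 8 genes. Slc12a1 in fl/fl, at 0.99, and Calb1, Umod and S100g in tKO, at 1.08, 0.50 and 0.62, have intervals above 0 before adjustment, and no adjusted p was under 0.05.

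The genotypes were first compared in sham kidneys, where 2 of the 9 genes were higher in tKO at an edgeR adjusted p under 0.05. Of all genes 12.3% were called, 5.76% of all higher and 6.57% lower. At an unadjusted p under 0.05 there were 5, and DESeq2 called 3. Slc12a3 had 775, 1053 and 1075 CPM in tKO sham kidneys, against 533, 579.7 and 487 CPM in fl/fl sham kidneys (log2 0.86, SE 0.18, edgeR adjusted p = 0.0122). Trpm6 had 24.4, 23.7 and 42.7 CPM in tKO sham, against 18.5, 17.01 and 17.7 CPM in fl/fl sham kidneys (log2 0.76, SE 0.23, edgeR adjusted p = 0.0455). Neither pair of groups overlapped in CPM. On the authors' FPKM scale Slc12a3 overlapped, at 27.9 to 50.8 FPKM in tKO sham and 28.6 to 30.8 FPKM in fl/fl sham kidneys, and Trpm6 did not, at 1.79 to 2.43 FPKM in tKO sham and 1.46 to 1.68 FPKM in fl/fl sham kidneys.

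Neither call held under every alternative. Without the library labelled tKO sham replicate 1, whose Pcmt1 went against its label, Slc12a3 stood at 0.99 (edgeR adjusted p = 0.0027), Trpm6 at 0.89 (edgeR adjusted p = 0.0219) and Wnk1, at 0.65, passed as well (edgeR adjusted p = 0.0120). Without tKO sham replicate 2 neither passed, Slc12a3 at 0.79 (edgeR adjusted p = 0.0547) and Trpm6 at 0.91 (edgeR adjusted p = 0.0653). Without tKO sham replicate 3, Slc12a3 stayed past the threshold at 0.78 (edgeR adjusted p = 0.0382) and Trpm6 did not, at 0.44 (edgeR adjusted p = 0.197). Trpm6 also missed it without fl/fl sham replicate 1, 2 or 3 (edgeR adjusted p = 0.0867, 0.119 and 0.110), and Slc12a3 passed without each of these (edgeR adjusted p = 0.0352, 0.0364 and 0.0468). With library totals neither passed, Slc12a3 at 0.52 (edgeR adjusted p = 0.211) and Trpm6 at 0.35 (edgeR adjusted p = 0.377). Neither passed with only the 2 sham groups in the fit (edgeR adjusted p = 0.0948 for Slc12a3 and 0.141 for Trpm6), and Trpm6 did not without the filter on low counts (edgeR adjusted p = 0.0998). The third tKO sham library had the highest CPM of the group for 8 of the 9 genes, along with its mitochondrial share of 69.5% and its TMM factor of 0.352, and the part of these in the result was not tested. Markers of other cells differed between the same groups. Of 7 fibroblast markers 5 were higher in tKO (median log2 1.21), with a sum of 347 to 547 CPM in tKO sham and 180 to 248 CPM in fl/fl sham kidneys. Of 5 urothelium markers 3 were higher (median 1.99), with a sum of 54.8 to 214 CPM in tKO sham and 23.8 to 48.9 CPM in fl/fl sham kidneys. Of 10 proximal tubule markers 2 were lower (median -0.56), and their sums overlapped. None of these markers was at 0 in either group, and their part in the result was not tested.

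The other genes did not pass in sham kidneys. Umod had 557, 629 and 539 CPM in tKO sham, below the 745, 1007 and 754 CPM of fl/fl sham kidneys (log2 -0.54, SE 0.21, edgeR adjusted p = 0.0978), and stood at -0.52 without the library labelled tKO sham replicate 1 (edgeR adjusted p = 0.142). Wnk1 had 378, 439 and 685 CPM in tKO sham, above the 367, 338 and 366 CPM of fl/fl sham kidneys (log2 0.49, SE 0.18, edgeR adjusted p = 0.0756, DESeq2 adjusted p = 0.0493). Slc12a1 was at 0.69 (SE 0.30, edgeR adjusted p = 0.140), with overlapping groups, and at 0.88 without that library (edgeR adjusted p = 0.0603). Calb1, S100g, Slc8a1 and Pvalb overlapped as well. Without that library 3 of the 9 genes passed, those given above. In all, 4 of the 9 genes did not overlap, beside 30.3% of all genes.

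In obstructed kidneys given DMSO, none of the 9 genes passed edgeR's test between tKO and fl/fl, where 17.9% of all genes did. At an unadjusted p under 0.05 there were 2, and DESeq2 called 0. Calb1 had 12.4, 13.4 and 17.9 CPM in tKO UUO, below the 37.3, 23.9 and 19.6 CPM of fl/fl UUO kidneys (log2 -0.89, SE 0.38, edgeR adjusted p = 0.113). Trpm6 had 24.99, 25.1 and 34.4 CPM in tKO UUO, above the 21.7, 21.2 and 12.8 CPM of fl/fl UUO kidneys (log2 0.60, SE 0.23, edgeR adjusted p = 0.0820). These 2 genes were the ones without overlap, beside 42.4% of all genes. With LY2109761 none of the 9 passed by edgeR, at an unadjusted p under 0.05 or by DESeq2, where edgeR called 2.98% of all genes, and none of the 9 was without overlap, beside 27.2% of all genes. None passed by edgeR as each library was left out, among them fl/fl UUO+LY2109761 replicate 3, whose Pcmt1 lay in the tKO range.

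Whether obstruction or the inhibitor acted differently in the genotypes was tested as an interaction. For obstruction, tKO minus fl/fl, none of the 9 genes passed by edgeR or DESeq2, where edgeR called 0.0415% of all genes, and 2 had an unadjusted p under 0.05. Slc12a3 was at -0.64 (SE 0.26, edgeR adjusted p = 0.320) and Wnk1 at -0.55 (SE 0.25, edgeR adjusted p = 0.373). As each of the 12 libraries was left out, Slc12a3 ran from -0.80 to -0.47 and Wnk1 from -0.71 to -0.26 (without tKO sham replicate 3). In none of these fits did any of the 9 genes pass, also without the library labelled tKO sham replicate 1. For LY2109761 none passed by edgeR or DESeq2, where edgeR called 13.8% of all genes (7.05% higher), and 1 had an unadjusted p under 0.05. That was Calb1, at 1.35 (SE 0.53, edgeR adjusted p = 0.102), and at 0.84 without tKO UUO+LY2109761 replicate 2.

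Other genes linked to the work of these segments were read from 5 lists, 54 tested genes in all. Other cells may make some of them too, and from whole kidney the cells behind their counts cannot be told. In tKO kidneys 34 of them fell with obstruction and 5 rose, and in fl/fl kidneys 28 fell and 8 rose, beside the shares of all genes given above. With library totals, 11686 genes were higher and 715 lower in tKO and 8547 higher and 906 lower in fl/fl, against 4168 higher and 3729 lower in tKO and 4031 higher and 3594 lower in fl/fl with TMM, and the counts with library totals are given for each list.

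Of 12 genes of the thick ascending limb, 9 fell and 2 rose in tKO (median log2 -1.60) and 10 fell and 2 rose in fl/fl (median -1.39). With library totals 5 fell and 2 rose in tKO, and 6 fell and 2 rose in fl/fl. Egf, the gene of epidermal growth factor, stood at 15.4 ± 2.94 CPM in tKO UUO and 313 ± 45.8 CPM in tKO sham kidneys, and at 13.0 ± 2.70 CPM in fl/fl UUO and 253 ± 95.4 CPM in fl/fl sham kidneys (SD, n = 3 each). The log2 change of Egf was -4.34 in tKO and -4.29 in fl/fl (edgeR adjusted p = 1.7e-06 and 1.8e-06). Kcnj1, the potassium channel that returns potassium to the lumen, fell, at -1.86 in tKO and -2.12 in fl/fl (edgeR adjusted p = 3.2e-05 and 1.1e-05). The 2 that rose, singled out after their values were seen, were tight junction genes. Cldn14, which lowers calcium passage between the cells of the limb, had 99 counts in tKO UUO and 2 in tKO sham kidneys, a 19.9-fold higher level with a 95% counting interval of 5.38 to 166.9. In fl/fl it had 144 counts in UUO and 4 in sham kidneys, a 24.8-fold higher level with an interval of 9.49 to 92.4. In each genotype 2 of the 3 sham libraries held no count of Cldn14, so that it passed the filter on low counts through the obstructed libraries alone and had to differ. Its call (edgeR adjusted p = 0.0031 in tKO and 3.5e-04 in fl/fl) is therefore a description. The fitted log2 value ran from 3.25 to 7.71 in tKO and from 3.92 to 8.36 in fl/fl as single libraries were left out. Cldn16, which lets calcium and magnesium pass, rose, at 1.10 in tKO and 0.93 in fl/fl (edgeR adjusted p = 0.0056 and 0.0126), also with library totals.

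Of 14 genes that control the sodium-chloride cotransporter, 9 fell and 0 rose in tKO (median -1.02) and 6 fell and 1 rose in fl/fl (median -0.69). With library totals 4 fell and 4 rose in each genotype. Wnk4, a kinase of the same family as Wnk1, fell, at -2.07 in tKO and -1.84 in fl/fl (edgeR adjusted p = 4.7e-08 and 1.2e-07). Klhl3, which marks WNK kinases for breakdown, fell, at -2.26 in tKO and -2.17 in fl/fl (edgeR adjusted p = 7.4e-07 and 1.0e-06). Ppp1r1a, a phosphatase inhibitor of the distal tubule, fell, at -2.55 in tKO and -3.12 in fl/fl (edgeR adjusted p = 2.1e-05 and 4.3e-06). The 1 that rose in fl/fl, again seen first and then named, was Oxsr1, a kinase downstream of the WNK kinases, at 0.43 (SE 0.15, edgeR adjusted p = 0.0294).

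The calcium list split. Of 8 genes, 5 fell and 2 rose in tKO (median -1.06) and 4 fell and 3 rose in fl/fl (median 0.11), and with library totals 2 fell and 3 rose in each. Among those that fell in both genotypes, Klk1, tissue kallikrein of the connecting tubule, had 138 ± 31.7 CPM in tKO UUO and 2623 ± 378.9 CPM in tKO sham, and 148 ± 60.2 CPM in fl/fl UUO and 2156 ± 157 CPM in fl/fl sham kidneys (edgeR adjusted p = 6.5e-07 in tKO and 1.2e-06 in fl/fl). Kl, which encodes klotho, fell, at -2.59 in tKO and -1.51 in fl/fl (edgeR adjusted p = 8.6e-07 and 7.2e-05), and Vdr, the vitamin D receptor gene, at -1.44 in tKO and -0.82 in fl/fl (edgeR adjusted p = 1.8e-06 and 2.4e-04). The apical calcium channel gene Trpv5, named after its values were seen, had 53.1 ± 15.2 CPM in fl/fl UUO and 19.2 ± 3.44 CPM in fl/fl sham kidneys, and rose (log2 1.46, SE 0.25, edgeR adjusted p = 2.6e-04). In tKO it had 28.3 ± 4.55 CPM in UUO and 23.5 ± 5.67 CPM in sham kidneys (log2 0.27, SE 0.25, edgeR adjusted p = 0.410). By edgeR's test of the difference in the obstruction change between genotypes, 0 of the 54 genes of the lists were called, beside 0.0415% of all genes. With library totals Trpv5 rose in both genotypes, at 1.36 in tKO (edgeR adjusted p = 0.0011) and 2.19 in fl/fl (edgeR adjusted p = 2.9e-05). The medians of all genes were then 1.06 and 0.76. Also named after their values were seen, Trpv6, a relative of Trpv5, rose with TMM, at 2.76 in tKO and 2.04 in fl/fl (edgeR adjusted p = 0.0010 and 0.0069), and the plasma membrane calcium pump gene Atp2b1 rose, at 0.90 in tKO and 0.76 in fl/fl (edgeR adjusted p = 0.0188 and 0.0446).

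Of 10 tested magnesium genes, 6 fell and 1 rose in tKO (median -0.86) and 4 fell and 2 rose in fl/fl (median -0.33). With library totals 1 fell and 4 rose in tKO, and 2 fell and 4 rose in fl/fl. Fxyd2, the gamma subunit of the sodium pump, fell, at -1.18 in tKO and -1.33 in fl/fl (edgeR adjusted p = 1.4e-05 and 4.9e-06), and Pcbd1, an enzyme that recycles tetrahydrobiopterin, at -1.21 in tKO and -1.45 in fl/fl (edgeR adjusted p = 1.6e-05 and 3.2e-06). Those that rose, named after their values were seen, were Slc41a3, of a family of magnesium transporters, in tKO at 1.71 (edgeR adjusted p = 1.7e-04), and in fl/fl its relative Slc41a1 at 0.75 and Egfr, the receptor of epidermal growth factor, at 0.53 (edgeR adjusted p = 0.0095 and 0.0159). Egf, which stimulates Trpm6 channels, also stands on this list. The eleventh listed gene, Kcna1, did not pass the filter on low counts.

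Of 12 transcription factors and coactivators listed for the loop and distal tubule, 7 fell in tKO (median -0.88) and 5 in fl/fl (median -0.70). None rose in either. With library totals 0 fell and 2 rose in tKO, and 1 fell and 3 rose in fl/fl. Irx1 fell, at -1.70 in tKO and -2.31 in fl/fl (edgeR adjusted p = 3.0e-04 and 2.2e-05), Emx1 at -1.04 in tKO and -1.16 in fl/fl (edgeR adjusted p = 0.0038 and 0.0018), and Pou3f3 at -0.63 in tKO and -1.10 in fl/fl (edgeR adjusted p = 0.0327 and 0.0011). With library totals Pou3f3 in tKO was at 0.37, and Pcbd1 and Irx1 in tKO and Vdr, Fxyd2, Emx1 and Pou3f3 in both genotypes no longer passed. Leaving out single libraries cost few of the genes named in the 5 lists their call with obstruction. Atp2b1 lost it without any of 5 of the 6 libraries in fl/fl (edgeR adjusted p up to 0.160) and of 2 of the 6 in tKO (up to 0.0662). Pou3f3 lost it without any of 4 of the 6 in tKO (edgeR adjusted p up to 0.154) and with only the groups compared (0.1103). In fl/fl Oxsr1 lost it without any of 5 of the 6 (edgeR adjusted p up to 0.114), Egfr of 2 (up to 0.0857) and Cldn16 of 2 (up to 0.0644).

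**Figure D5:**
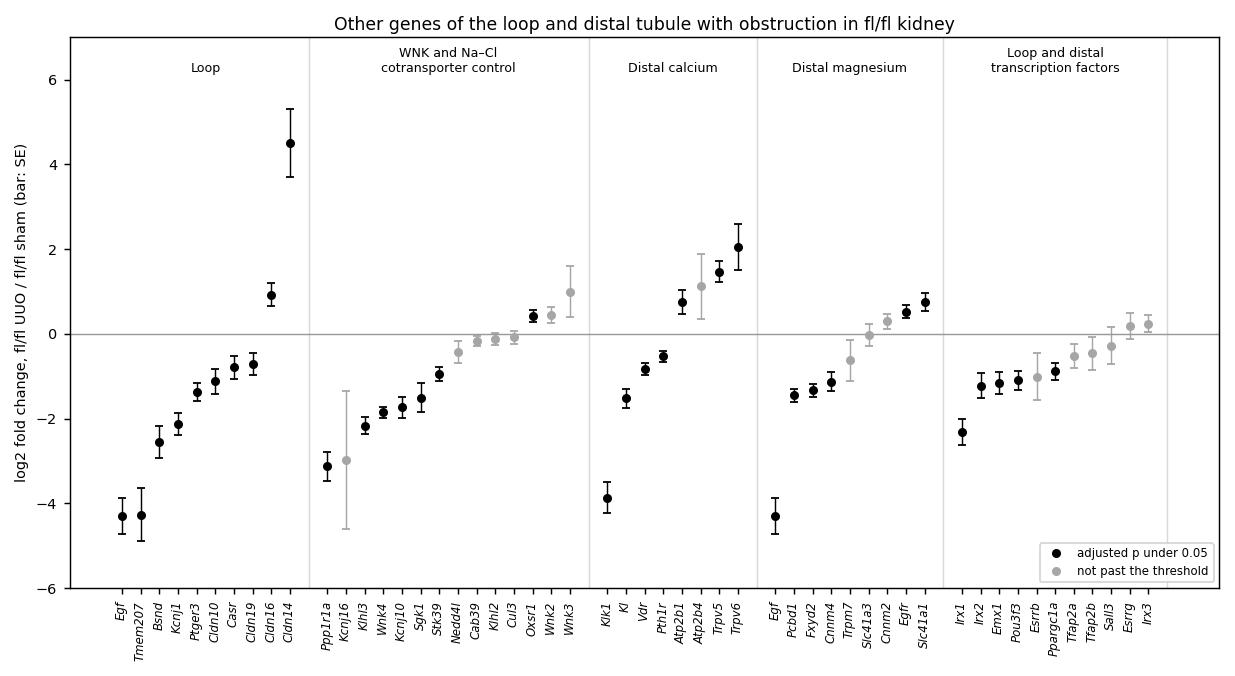
Log2 fold change between fl/fl UUO and fl/fl sham kidneys (vertical axis, bars are standard errors from edgeR) of genes of the 5 lists (a few are not shown), ordered within each list, black where the adjusted p is under 0.05. Egf appears in 2 lists. Most called genes lie below 0, and Cldn14 at 4.51 (a fitted value that rests on 4 counts in the sham group), Cldn16 at 0.93, Trpv5 at 1.46 and Trpv6 at 2.04 are among those above.

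Between the genotypes, 8 of the 54 genes were called in obstructed kidneys (14.8%), 7 lower and 1 higher in tKO, beside 9.65% lower and 8.27% higher of all genes. Of all genes 17.9% were called, in either direction. In the same comparison 3 of 10 proximal tubule markers were lower (median -1.09), with overlapping sums, while 3 of 8 macrophage markers (median 0.82) and 3 of 7 fibroblast markers (median 1.06) were higher. The fibroblast sum was 2298 to 3721 CPM in tKO UUO and 1147 to 1384 CPM in fl/fl UUO kidneys, none of these markers was at 0, and their part in the result was not tested. The calcium list gave 4 of the 8 genes, each lower in tKO. These were Kl at -1.08 (edgeR adjusted p = 0.0059), Trpv5 at -0.91 (edgeR adjusted p = 0.0214), Vdr at -0.58 (edgeR adjusted p = 0.0118) and, named after its value was seen, Pth1r, the parathyroid hormone receptor gene, at -0.49 (edgeR adjusted p = 0.0195). The others, named after their values were seen, were Klhl2 at -0.76, Egfr at -0.65 and Cul3 at -0.55 lower and Slc41a3 at 0.85 higher (edgeR adjusted p at most 0.0321). Kl and Klhl2 passed without each of the 6 libraries in turn. The other 6 genes lost the call without at least 1 of them, with edgeR adjusted p of up to 0.0511 for Vdr, 0.0751 for Egfr, 0.0832 for Pth1r, 0.0916 for Cul3, 0.0949 for Trpv5 and 0.165 for Slc41a3, and fl/fl UUO replicate 1 cost all 6 the call. With library totals Kl alone of the 8 passed (edgeR adjusted p = 0.0356), and with only the groups compared Pth1r (edgeR adjusted p = 0.0502) and Slc41a3 (0.0991) did not. In sham kidneys, beside the shares of all genes given above, the calls included Klhl3, higher in tKO at 0.63, and Irx1, lower in tKO at -0.95 (edgeR adjusted p = 0.0429 and 0.0435). Neither passed with library totals or with only the groups compared. Irx1 lost its call without any one of the 6 libraries (edgeR adjusted p 0.0527 to 0.173). Klhl3 lost its call without any of 5 of the 6 (up to 0.177) and passed without the library labelled tKO sham replicate 1, at 0.79 (edgeR adjusted p = 0.00997), where Irx1 was at -0.99. LY2109761 against DMSO called, in fl/fl, Cul3 at -0.59 and Kl at -0.81 (edgeR adjusted p = 0.0356 and 0.0459), 2 of 54 beside 2.62% lower of all genes. Neither passed with library totals, with only the groups compared or without the filter on low counts. Kl lost its call without any one of the 6 libraries (edgeR adjusted p 0.0635 to 0.186), and Cul3 without any of 5 of the 6 (up to 0.159). Of 5 urothelium markers 3 were higher in the same comparison (median 2.32), and their part in it was not tested.

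Likeness to Umod and to Slc12a3 was measured as the mean absolute difference of log2 CPM over the 18 libraries, each gene centred on its own mean, among 12039 genes with a mean of at least 5 CPM. Among the 5 nearest to Slc12a3 were Bckdhb (0.171), Sema4g (0.172) and Grip2 (0.186). The nearest to Umod were Spryd7 (0.157), Ptpn11 (0.162), Rora (0.162), Map3k2 (0.163) and Pls1 (0.164). Among the 9 genes themselves the closest pair was Slc12a3 and Wnk1 (0.182), Calb1 and S100g were at 0.389, and Umod and Trpm6 at 0.486. These are descriptions over libraries that share the groups and the scaling.

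A separate table lists 410 genes for whole kidneys of Pcmt1-/- and wild-type mice, 4 libraries each, chosen by the authors on those same libraries, so its values are described without a test. Slc12a1 was listed, with 159, 173, 145 and 211 FPKM in knockout kidneys, against 95.8, 100.9, 97.004 and 78.9 FPKM in wild-type kidneys. All knockout libraries lay above all wild-type libraries, and the ratio of the means was 1.85. Beside it, in the obstruction experiment, Slc12a1 stood at 99.7 ± 24.6 FPKM in tKO sham and 80.1 ± 15.3 FPKM in fl/fl sham kidneys, with overlap. These FPKM divide by totals that include the mitochondrial counts, whose shares in the sham libraries are given above. In CPM after TMM it stood at 1271 ± 334 in tKO sham and 789 ± 186 in fl/fl sham kidneys, also with overlap (log2 0.69, edgeR adjusted p = 0.140). Genes of the 5 lists in the table included Esrrb (4.59 ± 1.499 FPKM in knockout and 2.97 ± 0.761 FPKM in wild-type kidneys) and Kcnj16 (3.61 ± 0.505 FPKM in knockout and 15.2 ± 24.3 FPKM in wild-type kidneys), SD with n = 4 each, and Tmem207, 1.91-fold higher in knockout kidneys. The other 8 members are not among its rows.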

How the data were processed

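Messenger RNA of mouse kidneys was sequenced, after extraction with TRNzol and library preparation with the ABclonal mRNA-seq kit, per the labels' protocols. The authors deposited raw read counts per gene beside FPKM, fragments scaled to gene length and depth, in the same table. Per the submitters' processing notes fastp, HISAT2 and StringTie were used on GRCm38; no source used here gives versions, the annotation, the strand setting or the counting step. The coordinates in the obstruction table are not those of GRCm38, so positions were taken by gene ID from GENCODE M21 (GRCm38). Human cell samples were not used here.

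The deposited counts of all 18 obstruction libraries were fitted together in edgeR 4.0.16 (R 4.3.3) with a mean for each group, TMM scaling, edgeR's filter on low counts, which left 19256 of 57180 genes, and the quasi-likelihood test, with Benjamini-Hochberg adjustment over those genes and a threshold of 0.05. The biological coefficient of variation was 0.283, with 12 residual degrees of freedom. The code was tested on simulated data with 200 changed genes. Of genes simulated to change by a log2 of 1 in fl/fl UUO against sham, 26.7% were called, and of those by 2, 86.7%. A gene that did not pass may therefore still have changed by such an amount, unless its own interval leaves that amount out. For UUO against sham with TMM, the edgeR intervals of Umod were -0.15 to 0.74 in tKO and -0.36 to 0.53 in fl/fl. Those of Trpm6 were -0.58 to 0.40 in tKO and -0.42 to 0.56 in fl/fl. With TMM these intervals leave out a log2 change of 1 or 2 in either direction. The larger changes with library totals are given above. For Pvalb and Cldn14, at few or no counts in a group, folds use summed counts with an exact counting interval, or a floor of 3 counts over the group where it had none, and cover counting error only. FPKM served for levels between genes and for ratios within a library. Replicates were not the same library: across 18 pairs the chi-square per degree of freedom was 29.0 to 306. The alternatives were DESeq2 1.42.0, RLE size factors in edgeR, library totals, no mitochondrial genes, no filter, a replicate block, the groups compared alone and leaving out each library.

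All 9 genes were read in every comparison. Of each list of other genes, the 3 with the smallest p in fl/fl UUO against sham were named, except genes that are not reported here, and others are said to be named after their values were seen. The 9 genes and the lists were chosen with earlier results of these data known.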

Additional observations from a re-analysis of the deposited data

Results flagged for a closer look

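Among the genes listed for the loop and distal tubule, 7 of 54 responded differently to LY2109761 in obstructed tKO than in obstructed fl/fl kidneys. The calls were by edgeR's test of the difference itself (tKO minus fl/fl), and all 7 differences were positive. They made up 13.0% of the 54, beside 7.05% higher and 13.8% in either direction of all genes. By the same test 3 of 10 proximal tubule markers were higher (median log2 difference 1.18), and 4 of 7 fibroblast markers (median -1.14) and 1 of 5 smooth muscle markers (median -0.96) lower, and their part in the result was not tested. Kcnj10 and Esrrg were named after their values were seen. The log2 difference was 1.70 for Kl (edgeR adjusted p = 0.0043), where LY2109761 against DMSO gave 0.89 in tKO and -0.81 in fl/fl. It was 1.02 for Cul3 (edgeR adjusted p = 0.0070), from 0.43 in tKO and -0.59 in fl/fl, and 1.12 for Kcnj10 (edgeR adjusted p = 0.0445), from 0.51 in tKO and -0.61 in fl/fl. The values were 0.81 for Klhl2 (edgeR adjusted p = 0.0203), 0.74 for Vdr (edgeR adjusted p = 0.0236), 0.84 for Egfr (edgeR adjusted p = 0.0252) and 1.49 for Esrrg (edgeR adjusted p = 0.0334). With library totals Kl alone passed, at 1.69 (edgeR adjusted p = 0.0312), and with only the 4 groups compared Kcnj10 did not (edgeR adjusted p = 0.0554). Without the filter on low counts Kcnj10 (edgeR adjusted p = 0.0767), Klhl2 (0.0509) and Egfr (0.0503) did not pass. Kl and Cul3 passed without each of the 12 libraries in turn, among them fl/fl UUO+LY2109761 replicate 3, whose Pcmt1 lay in the tKO range. Klhl2 lost its call without any of 4 of them (edgeR adjusted p up to 0.0554), Vdr of 5 (up to 0.0633), Egfr of 6 (up to 0.0737), Esrrg of 8 (up to 0.0988) and Kcnj10 of 9 (up to 0.128). DESeq2 called all 7. None of the 9 genes was among them. Within tKO, LY2109761 against DMSO called 0 of the 54 genes, beside 0.171% of all genes. Within fl/fl it called 2 of the 54, Cul3 and Kl, with the limits given above, beside 5.15% of all genes.

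In the whole kidneys of the knockout table, 1 library stood apart from the other 3 of its group for Kcnj16, a potassium channel subunit of the distal tubule. In knockout kidneys it was the lowest, at 2.86 FPKM beside 3.81 to 3.94 FPKM (gap to the nearest over the range 0.881). In wild-type kidneys it was the highest, at 51.7 FPKM beside 2.55 to 3.26 FPKM (0.986). Both were past the 95% limit of Dixon's test for groups of 4. Chance alone marks about 1 in 20 such groups of unselected genes, and 10 groups were looked at. The genes here were chosen by the authors on these same libraries, so that rate need not hold and the marks are descriptions. In the obstruction experiment Kcnj16 stood at 77.8 ± 118, 49.7 ± 70.2 and 135 ± 107 CPM in tKO UUO+LY2109761, UUO and sham kidneys. In fl/fl kidneys it stood at 124 ± 104, 17.3 ± 1.45 and 136 ± 210 CPM in the same order (SD, n = 3 each).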

How the results depend on the processing

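RLE size factors, or leaving mitochondrial genes out, changed the call or direction of none of the results on single genes and none of the 11 counts of called members. The count for tKO against fl/fl sham kidneys moved, from 2 of 9 with TMM to 0 with library totals, 1 without the filter on low counts, 1 with the replicate block (Trpm6 lost, edgeR adjusted p = 0.0765) and 0 with only the groups compared, and ran from 0 to 3 when each library was left out. For LY2109761 in fl/fl kidneys DESeq2 called 1 where edgeR called 0. Library totals turned Trpm6 in tKO to 1.08 for UUO against sham and 0.65 for UUO+LY2109761 against sham, and Pou3f3 in tKO UUO against sham to 0.37 (edgeR adjusted p = 0.333). The block turned Umod in fl/fl UUO+LY2109761 against sham to -0.12, and dropping the filter turned Trpm6 in tKO UUO against sham to 1.5e-04. Leaving out each library, Trpm6 in UUO against sham ran from -0.26 to 0.23 in tKO and from -0.055 (without fl/fl UUO replicate 1) to 0.28 in fl/fl. Umod in fl/fl ran from -0.010 (without fl/fl UUO replicate 1) to 0.24 for UUO and from -0.074 (without fl/fl UUO+LY2109761 replicate 4) to 0.23 for UUO+LY2109761, and Calb1 for LY2109761 against DMSO in fl/fl from -0.59 to 0.043 (without fl/fl UUO replicate 1). The cause of these turns was not tested. Over all alternatives, 1393 of 1581 values of single genes kept their direction and their side of the threshold, 167 lost the call, 9 gained one and 12 changed sign.

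Replicate numbers were not taken as pairs. Same-numbered libraries of different groups correlated in their deviations at a median of -8.1e-05 (range -0.13 to 0.15, 2 of 40 pairs over 0.1). For different numbers the median was 3.7e-04 (range -0.16 to 0.17, 7 of 95 pairs over 0.1). Of 18 libraries 9 correlated best with one of their own number. How many would do so by chance was not worked out, so these values do not settle whether libraries were paired. Replicate 4 of fl/fl UUO+LY2109761 is the one library of its number, so the block fit gives it no weight. At 13015669 to 19565376 counts a library, Pvalb after obstruction is at the limit of detection.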
